A study of Mus musculus with 2 samples.

Results

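The miR-30 family is a set of paralogous miRNAs, and 7 of its mature miRNAs were followed here by name: mmu-miR-30a-5p, mmu-miR-30b-5p, mmu-miR-30c-5p, mmu-miR-30d-5p and mmu-miR-30e-5p, which are the main products of their hairpins, and mmu-miR-30a-3p and mmu-miR-30e-3p, which come from the opposite arm. They are 7 of the 1915 mature miRNAs listed in each library. Small RNA between 18 and 40 nucleotides was sequenced from the exosomes of parental CT26 cells (1 library) and from the exosomes of CT26-SDCSCs (1 library). CT26 is an established colon carcinoma line of Balb/C mice, and sphere-derived cancer stem cells (SDCSCs) are the spheroids it forms in serum-free DMEM/F12 with N2 supplements, 10 ng/ml EGF and 10 ng/ml bFGF over 2 weeks. Parental cells were grown in complete DMEM, and their exosomes were collected in that medium after its own exosomes had been depleted. Serum was thus present in one condition only, and cell state, medium and library preparation cannot be told apart.

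A miRNA guides a silencing complex to messenger RNAs that pair with its seed, the stretch from base 2 to base 8. Both strands of a hairpin can be released, and usually one of them, the guide, is kept while the other is degraded. The 5p miRNAs of the miR-30 family share one seed and can therefore bind the same sites. In epithelial cells they are known for repressing Snail, a driver of epithelial-mesenchymal transition, and for restraining autophagy through Beclin 1.

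The mature sequences are shown first because they tell which members share a seed and which can be confused in counting. Mature sequences of 5 of the 7 members were matched by name in RefSeq (GRCm38.p6). They are written 5′ to 3′ with the seed in capitals.
miR-30a-5p: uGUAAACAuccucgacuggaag
miR-30e-5p: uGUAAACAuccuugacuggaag
miR-30c-5p: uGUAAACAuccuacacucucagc
miR-30a-3p: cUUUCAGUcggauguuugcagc
miR-30e-3p: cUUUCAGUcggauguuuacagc

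The 5p members shown had the seed GUAAACA and both 3p members had UUUCAGU. Counted from 1 at the 5′ end, miR-30a-5p and miR-30e-5p differed at 1 of 22 bases (C13U), and miR-30a-3p and miR-30e-3p also at 1 of 22 (G18A). Over its first 22 bases miR-30c-5p differed from miR-30a-5p at 5, beginning with C13A. Reads of miR-30a and miR-30e could thus be exchanged by a single sequencing error or mismatch, and how such reads were assigned is not given in the sources used here. Among the other mature miRNAs in the RefSeq table, miR-384-5p had the seed of the 5p members.

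The members come from 6 hairpins that lie in 3 genomic pairs (GENCODE M21, GRCm38, the build called mm10 in the submitters' processing notes). Mir30a (chr1:23272269-23272339, plus strand) overlapped no other annotated gene, and Mir30c-2 (chr1:23291701-23291784, plus strand), 19.4 kb from it, lay in an exon of the lincRNA Gm27028. Mir30e (chr4:120772606-120772697) and Mir30c-1 (chr4:120769534-120769622) lay 2.98 kb apart on the minus strand, both in introns of Nfyc, which encodes a subunit of the transcription factor NF-Y. Mir30d (chr15:68341208-68341289) and Mir30b (chr15:68337415-68337510) lay 3.70 kb apart on the minus strand in exons of other transcripts, for the former those of the lincRNA Gm20732 and of Gm37296, which has no assigned coding status, and for the latter those of the noncoding Gm26621. The same mature miR-30c-5p is cut from Mir30c-1 and Mir30c-2, and its reads cannot be given to one of them. Both entries of miR-30c-5p held the same value in each library, and one of them was used.

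The hairpin of Mir30a shows how the arms are placed, with the 5p and the 3p miRNA in capitals.
Mir30a: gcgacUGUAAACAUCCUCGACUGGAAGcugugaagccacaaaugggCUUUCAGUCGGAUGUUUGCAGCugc

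The deposited RPM values, reads scaled to a common library total, were all whole multiples of the value of 1 read and are given below as reads. The libraries held 32162 miRNA reads for parental and 3964 for SDCSC exosomes, each miRNA name taken once, so 3 reads, the smallest count relied on, correspond to a share of 0.00933% and 0.0757%. Percentages are shares of these totals with 95% Wilson intervals, and log2 ratios are SDCSC over parental shares with exact conditional 95% intervals. Shares do not tell how many vesicles were released or how much RNA was packed in each. The paper reports that CT26-SDCSCs secreted more exosomes than parental cells, as measured by nanoparticle tracking. All intervals cover counting error only, since no replicate was sequenced and amplified reads are not independent molecules. Of 8 miRNAs fixed as markers of colon epithelium, 3 had a read in parental exosomes (55 reads in all) and 2 in SDCSC exosomes (2 reads). The exception to low levels was miR-192-5p, with 48 parental and 0 SDCSC reads (adjusted p = 0.0574 in Fisher's exact test, described below). miR-200a-3p, miR-200c-3p and miR-141-3p had 0 in both. Apart from miR-192-5p, these epithelial miRNAs were thus absent or near the detection limit in both libraries. The 8 markers of blood cells and serum had 2039 reads in parental exosomes (6.34%) and 1 read in SDCSC exosomes (0.0252%), where 7 of the 8 were at 0. Most of the parental reads stood under miR-486a-5p (856) and miR-486b-5p (853). Whether the same reads were counted under both names was not tested, so the parental share of these markers may be too high. The 2 stromal markers had 922 and 185 reads (2.87% and 4.67%), of which miR-143-3p held 888 and 185. miR-145a-5p had 34 parental and 0 SDCSC reads, a difference not detected after adjustment (adjusted p = 0.243, Fisher's exact test).

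The miR-30 family took a smaller share of the miRNA reads in SDCSC exosomes than in parental exosomes. Summed over the 7 members, 1362 reads were counted in the parental library, or 4.23% of miRNA reads (4.02 to 4.46%), against 62 in the SDCSC library, or 1.56% (1.22 to 2.0%). At the parental share, 168 reads would stand in the SDCSC library. The log2 ratio was -1.44 (-1.83 to -1.07), a 2.71-fold lower share (2.10 to 3.55). Without the most reduced member, miR-30d-5p, it was -1.17 (-1.61 to -0.76). Blood cell and serum markers moved in the same direction, and relative to totals without these 8 miRNAs, an alternative chosen after the data were seen, the log2 ratio of the family was -1.53. Whether RNA from serum contributed miR-30 reads was not tested.

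Each 5p member had reads in both libraries. The guide miR-30a-5p, whose best known target is Beclin 1, was the most abundant member in each, with 574 parental reads (1.78%, 1.65 to 1.94%) and 31 SDCSC reads (0.782%, 0.551 to 1.11%). It ranked 15 and 23 among all miRNAs. Its log2 ratio was -1.19 (-1.76 to -0.67), with an adjusted p of 7.17e-06 in Fisher's exact test (two-sided, Benjamini-Hochberg over 336 miRNAs with a read). Here and below this test compares the reads of the libraries, and differences between the conditions have no replicate check.

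miR-30d-5p, known as a vesicle-borne miRNA of the endometrium, stood next to miR-30a-5p in parental exosomes with 430 reads (1.34%, 1.22 to 1.47%), and kept 11 reads in the SDCSC library (0.277%, 0.155 to 0.496%). At the parental share 53.0 reads would have been counted. This was the lowest ratio among the 5p members, with a log2 ratio of -2.27 (-3.28 to -1.41; adjusted p = 8.78e-10, Fisher's exact test). Its genomic neighbour miR-30b-5p, known to repress the Notch ligand DLL4, had 70 parental reads (0.218%) and 3 SDCSC reads (0.0757%). The log2 ratio of miR-30b-5p was -1.52 with an interval that reached above 0 (-3.84 to 0.082). Its adjusted p was 0.307 by Fisher's exact test, so a difference was not detected for this member.

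miR-30c-5p, which is known to target the lipid transfer protein gene Mttp in the liver, had 131 parental reads (0.407%, 0.343 to 0.483%) and 4 SDCSC reads (0.101%, 0.0392 to 0.259%). Its log2 ratio was -2.01 (-3.91 to -0.62; adjusted p = 0.00991, Fisher's exact test).

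The share of miR-30e-5p differed little between the libraries. With 115 parental reads (0.358%, 0.298 to 0.429%) and 13 SDCSC reads (0.328%, 0.192 to 0.560%), the expected number at the parental share was 14.2 reads. The log2 ratio was -0.12 (-1.08 to 0.71; Fisher's exact test, adjusted p = 1.0), and its sign changed to 0.043 when the most abundant miRNA of each library was left out of the totals. The interval holds changes of up to 2.11-fold downward, so a moderate difference would not have been detected. With the reads of the near-identical miR-30a-5p and miR-30e-5p summed, a choice made after the data were seen, 689 parental and 44 SDCSC reads gave a log2 ratio of -0.95 (-1.42 to -0.51).

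**Figure D1:**
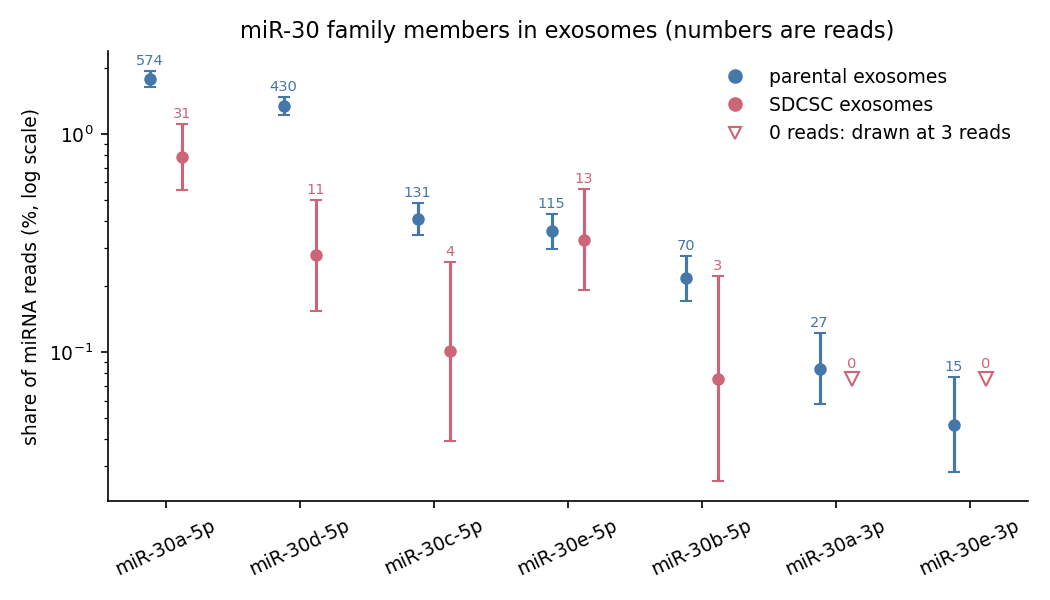
Share of miRNA reads (percent, log scale) of each miR-30 member in the library of parental exosomes and in that of SDCSC exosomes, with 95% Wilson intervals and the reads above each point; an open triangle marks 0 reads and is drawn at the share of 3 reads. The intervals of miR-30a-5p, miR-30d-5p and miR-30c-5p are apart, those of miR-30e-5p overlap almost wholly, and both 3p arms have 0 reads in SDCSC exosomes.

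The 3p arms were rare. miR-30a-3p had 27 parental reads (0.0840%) and 0 SDCSC reads, and the upper limit of its log2 ratio, 0.25, lay above 0, so that no decrease is bounded. Fisher's exact test gave an adjusted p of 0.325. miR-30e-3p, reported elsewhere to target the NF-κB inhibitor IκBα, had 15 reads (0.0466%) and 0, a parental share that is itself below what the SDCSC library can show (adjusted p = 1.0, Fisher's exact test). Taken singly, the absence of each from SDCSC exosomes was within what its depth leaves undetected, since 3.33 and 1.85 reads would have been counted there at the parental shares. Summed, the 3p arms had 42 parental and 0 SDCSC reads, where 5.18 would have been counted at the parental share. The upper limit of the summed log2 ratio was -0.42, so their joint share was lower by this unadjusted interval. The sum rests on 0 SDCSC reads and pools 2 arms for which no difference was detected singly.

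By the rule of a ratio of at least 1.5-fold and an adjusted p under 0.05, 3 of the 7 members were called lower in SDCSC exosomes, namely miR-30a-5p, miR-30c-5p and miR-30d-5p, and 0 were called higher. Over all 336 miRNAs with a read, 9.23% were called lower and 4.76% higher. This background is low because few miRNAs had enough reads to be called. Among the 68 miRNAs that reached 50 reads when both libraries were summed, 45.6% were called lower and 14.7% higher, and 3 of the 5 members in that range were. The count of called members was thus little above that of miRNAs of like abundance. Over the 5p members the median log2 ratio was -1.52, with a range from -2.27 to -0.12, beside a median of -0.81 over the 68 miRNAs and of 0.059 over the 116 with a read in both libraries.

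**Figure D2:**
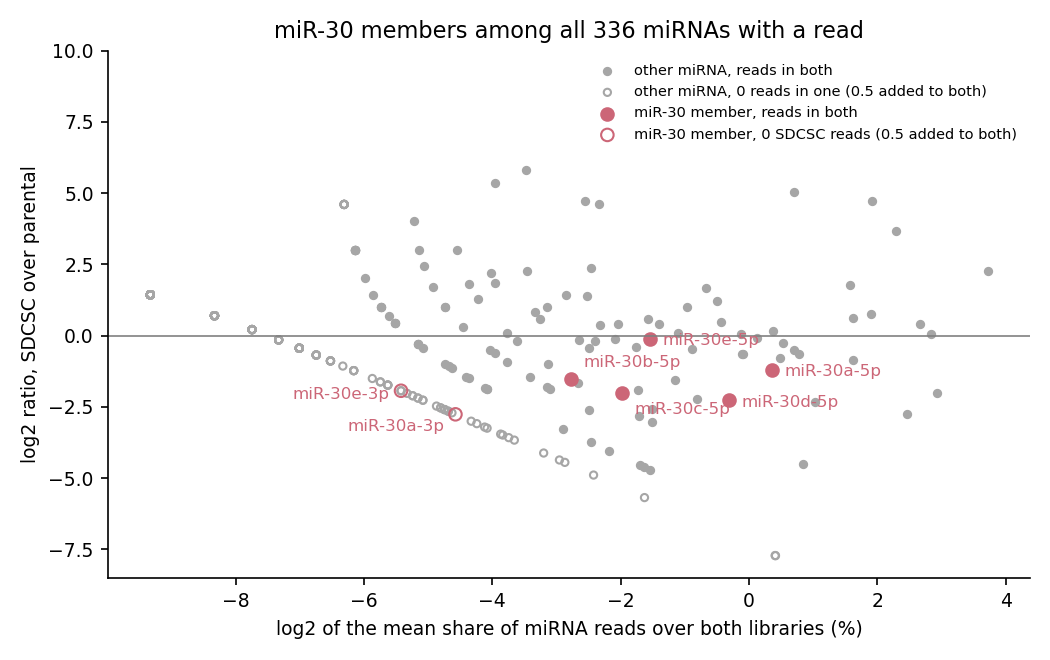
Log2 ratio of SDCSC to parental shares against the log2 of the mean share (percent) for the 336 miRNAs with a read, with miR-30 members in red; open circles have 0 reads in one library, and their ratio rests on 0.5 reads added to both. The 5p members lie between -2.27 and -0.12, among other abundant miRNAs that lie mostly below 0.

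The make-up of the family differed between the libraries. In parental exosomes miR-30a-5p held 42.1% of the family's 1362 reads (39.5 to 44.8%), miR-30d-5p 31.6% (29.2 to 34.1%), miR-30c-5p 9.62%, miR-30e-5p 8.44% (7.08 to 10.0%), miR-30b-5p 5.14%, miR-30a-3p 1.98% and miR-30e-3p 1.10%. In SDCSC exosomes miR-30a-5p held 50% of 62 reads (37.9 to 62.1%), miR-30e-5p 21% (12.7 to 32.6%), miR-30d-5p 17.7% (10.2 to 29.0%), miR-30c-5p 6.45% and miR-30b-5p 4.84%. Relative to the other members, the odds of miR-30e-5p were 2.87 times as high in SDCSC exosomes (exact 95% interval 1.39 to 5.58). Those of miR-30d-5p were 0.468 times as high (0.218 to 0.920). The intervals of the other 5 members included 1, among them that of miR-30a-5p (1.37, 0.797 to 2.36). Such intervals were computed for the 7 members without adjustment, they depend on one another because the shares sum to the whole, and library scaling has no part in them. Set against the near-identical miR-30a-5p alone, the ratio of miR-30e-5p reads in SDCSC exosomes was 2.09 times that in parental exosomes. Its interval (0.973 to 4.26) included 1, so miR-30e-5p was not resolved from that member.

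**Figure D3:**
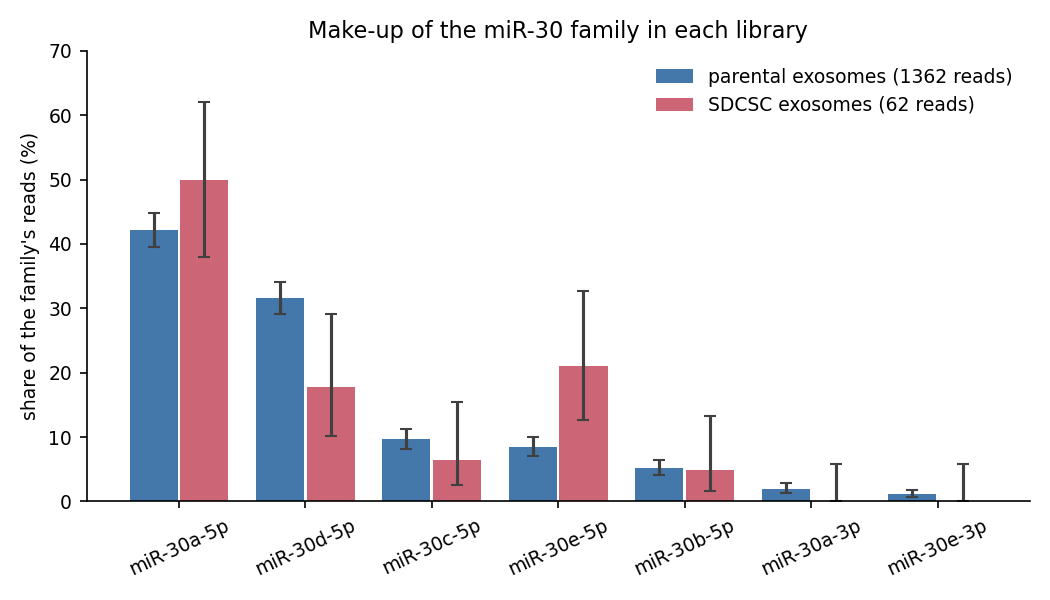
Share of the family's reads (percent) held by each member in parental exosomes (1362 reads) and SDCSC exosomes (62 reads), as bars with 95% Wilson intervals. The bar of miR-30e-5p is higher and that of miR-30d-5p lower in SDCSC exosomes, and miR-30a-5p is the tallest in both.

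The order of levels was resolved only in part. Mature miRNAs of 22 or 23 bases were compared by reads, with no length correction. In parental exosomes miR-30a-5p exceeded miR-30d-5p 1.33-fold (exact 95% interval 1.18 to 1.52), and miR-30d-5p exceeded miR-30c-5p 3.28-fold (2.69 to 4.02). The neighbours miR-30c-5p and miR-30e-5p did not differ beyond counting error (1.14-fold, 0.880 to 1.48), though with both entries of miR-30c-5p counted it stood 2.28-fold above miR-30e-5p. miR-30a-3p and miR-30e-3p did not differ beyond counting error either (1.80-fold, 0.924 to 3.64). In SDCSC exosomes miR-30a-5p exceeded miR-30e-5p 2.38-fold (1.21 to 4.97), and every later neighbour had an interval that included 1. There miR-30e-5p came before miR-30d-5p by 13 to 11 reads (0.489 to 2.91), whereas in parental exosomes miR-30d-5p came before it by 430 to 115.

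Members of a genomic pair were compared as ratios of reads within a library, in which the library total cancels. The Mir30b and Mir30d pair had 0.163 reads of miR-30b-5p per read of miR-30d-5p in parental exosomes (0.125 to 0.210) and 0.273 in SDCSC exosomes (0.0489 to 1.03). The ratio in SDCSC exosomes was 1.67 times that in parental exosomes, with an interval from 0.293 to 6.55 that does not resolve a change. The Mir30a and Mir30c-2 pair had 4.38 reads of miR-30a-5p per read of miR-30c-5p in parental (3.62 to 5.34) and 7.75 in SDCSC exosomes (2.74 to 30.2), and here too the change, 1.77 times, was not resolved (0.610 to 7.01).

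The Mir30e and Mir30c-1 pair, in introns of one gene, was the exception. Its ratio of miR-30e-5p to miR-30c-5p was 0.878 in parental exosomes (0.677 to 1.14), from 115 and 131 reads, and 3.25 in SDCSC exosomes (1.0 to 13.7), from 13 and 4 reads. This was 3.69 times as high (1.10 to 16), an interval that leaves out 1 narrowly and was not adjusted for the 3 pairs. With both entries of miR-30c-5p counted, the ratios were 0.439 and 1.62. The change between libraries was almost the same by construction, because both entries held the same value, and gives no further support. Because miR-30c-5p is also cut from Mir30c-2 on chromosome 1, the change cannot be placed at this locus. Summed, the members from the chromosome 15 pair had 500 parental and 14 SDCSC reads, against 862 and 48 for the members from the other loci. Their log2 ratios were -2.14 (-3.02 to -1.38) and -1.15 (-1.60 to -0.73). The ratio of chromosome 15 members to the others was 0.503 times as high in SDCSC exosomes (0.253 to 0.939). miR-30d-5p held 430 of the 500 parental and 11 of the 14 SDCSC reads, so this ratio mostly restates that member. For miR-30b-5p the odds relative to the other members were 0.939 times as high, with an interval that included 1. A fall shared by both chromosome 15 members relative to the rest of the family was thus not resolved.

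The 5p arm exceeded the 3p arm in the hairpins of miR-30a and miR-30e, those with both arms among the members. In parental exosomes there were 21.3 reads of miR-30a-5p per read of miR-30a-3p (14.5 to 32.5) and 7.67 reads of miR-30e-5p per read of miR-30e-3p (4.46 to 14.1). In SDCSC exosomes 31 reads against 0 and 13 against 0 gave lower limits of 7.91 and 3.05 for the same ratios. A change of arm ratio was not resolved for either hairpin, since the ratio in SDCSC exosomes could be as low as 0.348 and 0.352 times that in parental exosomes, with no upper limit.

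**Figure D4:**
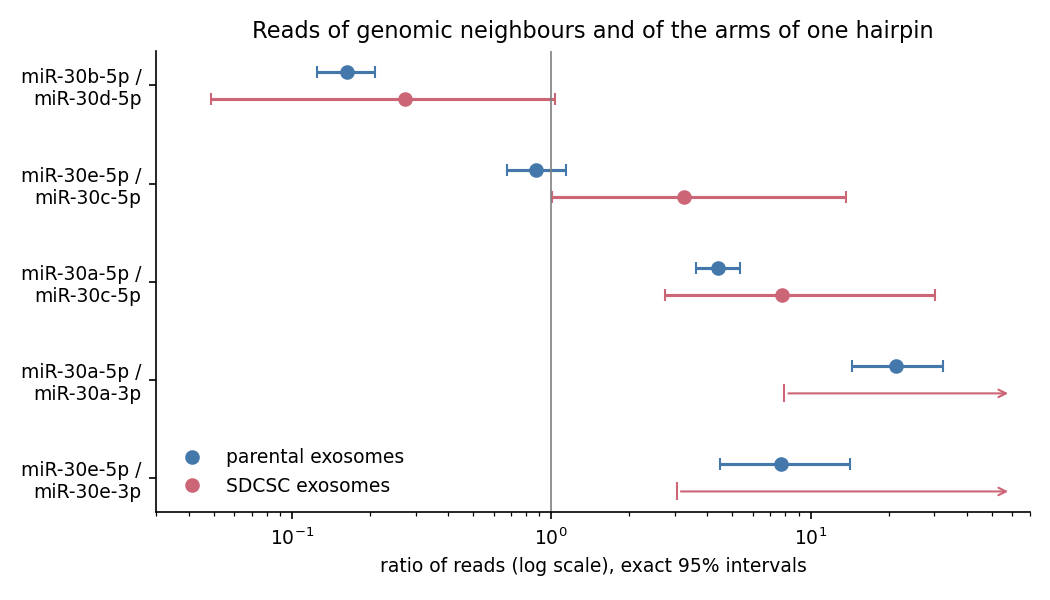
Ratio of reads (log scale) for the genomic neighbours and for the arms of miR-30a and miR-30e in parental and SDCSC exosomes, with exact 95% intervals; an arrow marks a ratio with no upper limit because the 3p arm had 0 reads. The intervals of the libraries overlap in every row, and the ratio of miR-30e-5p to miR-30c-5p goes from 0.878 to 3.25.

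The remaining arms of these hairpins and miR-30f were near the detection limit. In parental exosomes miR-30c-2-3p had 6 reads and miR-30c-1-3p had 2, and miR-30b-3p, miR-30d-3p and miR-30f had 1 each. All 5 had 0 reads in SDCSC exosomes, as had miR-384-5p, which had 0 in parental exosomes too. Together they made up 0.0342% of parental miRNA reads, less than the share that 3 SDCSC reads represent, so nothing can be said of their change. miR-30f (chr4:120772621-120772642, plus strand) is annotated on the strand opposite Mir30e, where miR-30e-3p lies (chr4:120772618-120772639, minus strand), and its sequence begins with the letters of the 5p seed, shown in capitals, shifted by 1 base.
miR-30f: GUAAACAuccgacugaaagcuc

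Other paralogous families were set beside miR-30. The miR-26, miR-181 and miR-148 and miR-152 families were chosen with earlier results known, and 3 more were added after the comparison had been seen. The miR-26 family (miR-26a-5p and miR-26b-5p) had 744 parental and 60 SDCSC reads, giving a log2 ratio of -0.61 (-1.02 to -0.23). The 4 miRNAs of the miR-181 family had 500 and 61 reads, with a log2 ratio of -0.015 (-0.42 to 0.37), and the 3 of the miR-148 and miR-152 family 95 and 18 reads, with 0.62 (-0.19 to 1.36). The ratio of the miR-30 family was 0.565 times that of the miR-26 family (0.385 to 0.829), 0.373 times that of the miR-181 family (0.254 to 0.549) and 0.241 times that of the miR-148 and miR-152 family (0.134 to 0.450). Of the families added, let-7 (9 miRNAs, let-7 and miR-98) had 1816 parental and 334 SDCSC reads, with a log2 ratio of 0.58 (0.40 to 0.75), and the 6 miRNAs of the miR-15 and miR-16 family had 595 and 55 reads, with -0.42 (-0.84 to -0.015). The miR-30 ratio was 0.248 times the former (0.184 to 0.329) and 0.493 times the latter (0.333 to 0.731). The let-7 sum rested largely on let-7a-5p, which had 435 parental and 182 SDCSC reads and a log2 ratio of 1.76. The log2 ratios of the other let-7 family members ran from -0.77 for let-7f-5p to 0.58 for let-7e-5p. The miR-130 and miR-301 family (4 miRNAs), with 190 and 7 reads, had a log2 ratio of -1.74 (-3.08 to -0.67), which was lower than that of miR-30. The miR-30 ratio was 1.24 times that of this family, with an interval that included 1 (0.554 to 3.25). The miR-30 family was thus lower beyond counting error relative to 5 of these 6 families and was not resolved from the sixth. The 6 intervals were not adjusted. Since the families were picked with results known, the tally depends on that choice and does not rank miR-30 among all families. Of the 68 more abundant miRNAs described above, 45.6% were called lower and 14.7% higher. Whether families left out fell as far as miR-30 was not tested. The most abundant miRNAs, for scale, moved further in both directions, with a log2 ratio of -2.01 for miR-99b-5p in parental and of 2.26 for miR-21a-5p in SDCSC exosomes.

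**Figure D5:**
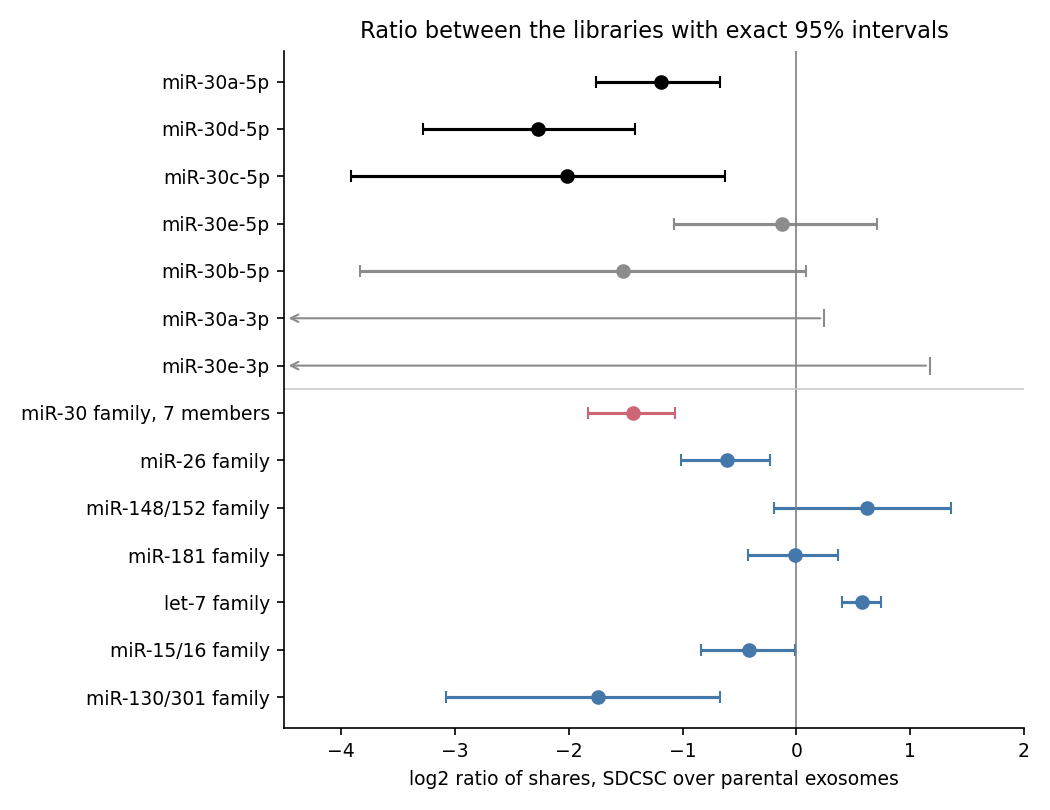
Log2 ratio of SDCSC to parental shares with exact 95% intervals for each miR-30 member (black where called lower, grey where not called), for the sum of the 7 members and for the other families; an arrow marks an interval with no lower limit because SDCSC exosomes had 0 reads. The sum of the family lies at -1.44, below the miR-26, miR-148 and miR-152, miR-181, let-7, and miR-15 and miR-16 families at -0.61, 0.62, -0.015, 0.58 and -0.42, and above the miR-130 and miR-301 family at -1.74, whose interval overlaps it.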

How the data were processed

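Small RNA libraries were prepared with the TruSeq Small RNA kit from RNA of exosomes of parental CT26 cells and of CT26-SDCSCs, with 1 library each. The authors clipped 3′ adapters with Trimmomatic and discarded reads shorter than 18 nucleotides. They deposited an RPM value for each mature miRNA at each precursor, scaled to all entries of the table. The submitters' processing notes name mm10, and the aligner, the counter and the miRBase release are not given in the sources used here. The study describes ncPRO-seq, with counts shared among features, for its small noncoding RNA, and whether the deposited miRNA values were made so is not stated.

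Reads were recovered from the RPM values as whole multiples of the value of 1 read (tolerance 0.01 RPM), which was 27.31 RPM in the parental and 217.77 RPM in the SDCSC library. Over all entries 36615 and 4592 reads were obtained. For a miRNA with several entries the highest was kept. A log-scale test or edgeR could not be fitted without replicates, so Fisher's exact test (two-sided, Benjamini-Hochberg adjustment across all miRNAs with a read) was run on recovered reads. It called 16 miRNAs higher and 31 lower. A read count of 0.5 was added to both libraries where one had 0. Shares have Wilson intervals, ratios between libraries exact binomial intervals, and ratios of ratios conditional odds ratio intervals. Scripts were tested on simulated data.

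Named were all members, the other miR-30 arms, miR-30f and miR-384-5p. Also named were the 3 miRNAs nearest to the family in log2 ratio and the most abundant miRNA of each library. The members and lists were chosen with earlier results of these data known. Alternatives covered scaling, entries, added reads, filters, fold and members. Versions were Python 3.11.15, scipy 1.17.1, pandas 2.3.3, numpy 2.4.6, R 4.3.3 and edgeR 4.0.16 (TMM factors only).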

Additional observations from a re-analysis of the deposited data

How the results depend on the processing

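No paired analysis was possible because only 1 library stands for each condition. Another scaling (TMM, the median of ratios, or totals without the most abundant miRNA) moved all log2 ratios by -0.060, -0.059 and 0.17, and the family's log2 ratio stayed between -1.50 and -1.17 under these settings, with sums of entries, with log2(RPM + 1) values and with other choices of members. Under each of these scalings, with sums of entries, with 0.5 reads added to all miRNAs, with at least 10 reads and at 2-fold, 3 members were called lower. Without library scaling, which ignores that the parental library held 8.11 times the reads, the family's log2 ratio was -4.46 and 7 members were called lower. The sign of miR-30e-5p changed in 1 setting, to 0.043 without the most abundant miRNA of each library. That was miR-99b-5p in the parental and miR-21a-5p in the SDCSC library, so the totals left did not cover the same miRNAs. Leaving either of them out of both totals was not tried. Counting both entries of miR-30c-5p (an alternative chosen after the data were seen) raised its share of the parental family reads from 9.62% to 17.5% and of the SDCSC family reads from 6.45% to 12.1%, and in the parental library brought miR-30a-5p to 38.4% and miR-30d-5p to 28.8%. The 62 SDCSC reads of the family limit every comparison within it.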

Other observations

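Outside the family, the miRNAs with at least 50 reads whose log2 ratio was nearest to -1.44 were miR-5099, miR-23b-3p and miR-423-3p, over the 2 libraries. miR-5099 had 217 parental and 9 SDCSC reads, giving a log2 ratio of -1.57 (-2.72 to -0.62). miR-23b-3p had 77 and 3 reads, a log2 ratio of -1.66 (-3.97 to -0.060), and miR-423-3p had 56 and 2 reads, a log2 ratio of -1.79 (-4.87 to 0.13).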
